A study of Homo sapiens and Mus musculus with 54 samples.

Results

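The H3K27ac list of AhR-floxed mouse hepatocytes was described from all of its rows, 69615 regions among the 434604 entries of the 6 lists deposited for the series. Of the 54 libraries of the series, all made by ChIP-seq, 24 are from mice and 30 from the human line HepG2. H3K27ac is histone H3 acetylated at lysine 27, read by immunoprecipitating chromatin fragments that carry it. The list belongs to 12 libraries in 4 groups of 3, titled AhR_flox_Hepatocyte Cont with Ad_Cont, B2_minus with Ad_Cont, Cont with Ad_Cre and B2_minus with Ad_Cre, all with a time label of 4 weeks. All 4 groups carry the floxed AhR gene, and Cre is the recombinase that cuts out DNA between lox sites. B2_minus is the vitamin B2-deficient condition and Cont its control. The labels read here give no strain, age, promoter for Cre or pooling of animals, and do not say what Ad stands for. The series title asks how AhR reads vitamin B2 supply in the liver, and its design text names H3K27ac as the measure of enhancer activity.

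Every entry is a named mm10 interval, and none carries a value per library, so depth is unknown. The series lists input libraries for the AhR ChIP of liver and none for the hepatocyte H3K27ac ChIP. No region could be compared between the B2 conditions or between Ad_Cre and Ad_Cont. No test over samples was possible for any result here, and every difference below is a description of positions. Wilson intervals at 95% cover counting error over regions only, and neighbouring regions are not independent. Mouse gene positions and mouse sequence were not used here, so regions are named by mm10 position and the hepatocyte label was not checked against marker genes.

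H3K27ac lies on the nucleosomes that flank active promoters and enhancers. The nucleosomes are acetylated largely by the coactivators p300 and CBP, and a run of acetylated stretches close together often lies at genes with high output in that cell type. In hepatocytes such stretches are bound by liver factors such as HNF4A, FOXA and C/EBP proteins. AhR, the aryl hydrocarbon receptor, is a ligand-activated transcription factor that enters the nucleus, pairs with ARNT and binds DNA at many sites in liver chromatin.

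The hepatocyte regions were short. Their median width was 276 bp, with the middle 50% between 248 and 320 bp, and together they covered 21 Mb. Only 3076 were wider than 500 bp and 42 were wider than 1000 bp. A further 4 were under 200 bp, and each of these was the last region on its chromosome or contig. These were chosen after their widths were seen. The narrowest, 88 bp wide, ended at 98107562 on chromosome 16.

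The last field of each region's name was taken as its merge number, that is, how many peaks had been joined into it. A merge number of 2 was held by 52655 regions, 75.6% of the list (95% Wilson interval 75.3 to 76). Regions with a merge number of 1, called single regions, numbered 15835 (22.7%). A merge number of 3 was held by 897 regions, 4 by 212, 5 by 14 and 6 by 2. Regions of merge number 2 or more, called merged regions, thus made up 77.3% of the list. The labels do not say which peak sets were joined, so a single region cannot be assigned to a B2 condition or to Ad_Cre or Ad_Cont.

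Width rose in steps with the merge number. A region joined from more peaks is wider in part by construction, so the values below describe the joining. Single regions had a median width of 250 bp, those of merge number 2 a median of 281 bp, those of 3 a median of 573 bp and those of 4 a median of 651 bp. Merged regions had the larger median on 20 of 20 chromosomes (1 to 19 and X), by 27.5 to 37 bp. The name of a region also holds a position. In regions of merge number 2 this position lay a median of 5.5 bp from the region's midpoint, and within 35.5 bp in 95% of cases.

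**Figure D1:**
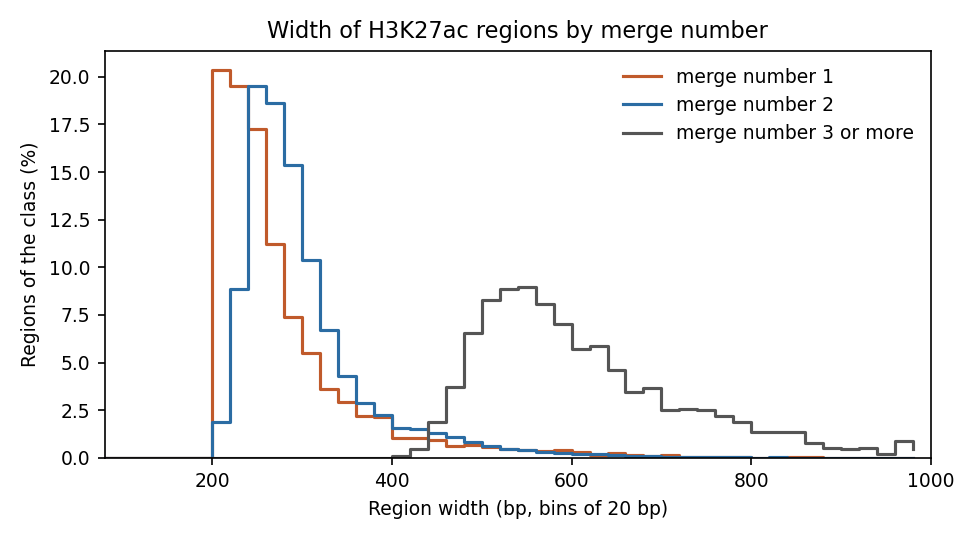
Width of the hepatocyte H3K27ac regions in bins of 20 bp (x axis, bp, drawn from 80 to 1000 bp) against the share of each merge class (y axis, %). Lines stand for merge numbers 1, 2, and 3 or more; the first pair of classes have medians of 250 and 281 bp, while the 1125 regions of 3 or more have a median of 588 bp and none under 417 bp.

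The widest region of the list, 1641 bp, lay on chromosome 15 at 78850133 to 78851773 with a merge number of 5, and 2 liver AhR peaks overlapped it. The next widest, 1548 bp, lay on the unplaced contig GL456239 with a merge number of 6 and no AhR peak. The others of the 5 widest each had a merge number of 5. They lay on chromosome 3 at 51358139 to 51359604 (1466 bp, 1 AhR peak), on chromosome 19 at 5824445 to 5825906 (1462 bp, 2 AhR peaks) and on chromosome 16 at 22898205 to 22899621 (1417 bp, 2 AhR peaks). Of these 5 regions, the 4 on chromosomes held an AhR peak and the contig region held none. In the whole list 25.1% of regions overlapped one, and 34.9% of merged regions wider than 500 bp did. At merge number 5 the share was 71.4% (10 of 14 regions, Wilson interval 45.4 to 88.3). These 14 include the 4 on chromosomes named above, so they are not a separate comparison. The 5 widest were picked for width, and a wider region has more room to share 1 bp with a peak. The difference in share was not tested.

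Regions were spread unevenly over chromosomes. Over the span from the first to the last region of each chromosome, autosomes held 23.7 regions per Mb on chromosome 14 up to 40.4 on chromosome 19, with a median of 29.1 over 19 autosomes. Chromosome 11 came second with 37.7 per Mb. Chromosome X stood apart with 880 regions, or 5.4 per Mb, so that the autosome median was 5.39 times higher. The liver AhR list had the same order of gap, 17.4 per Mb at the autosome median against 3.41 on X, a ratio of 5.11. In the H3K27ac list of HepG2, a human liver cancer line, the ratio was 3.02 (34.6 against 11.4 per Mb). The last ratio comes from another species and preparation, and the difference was not tested. Sex of the animals and copies of X per cell were not taken into account for any of the lists.

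**Figure D2:**
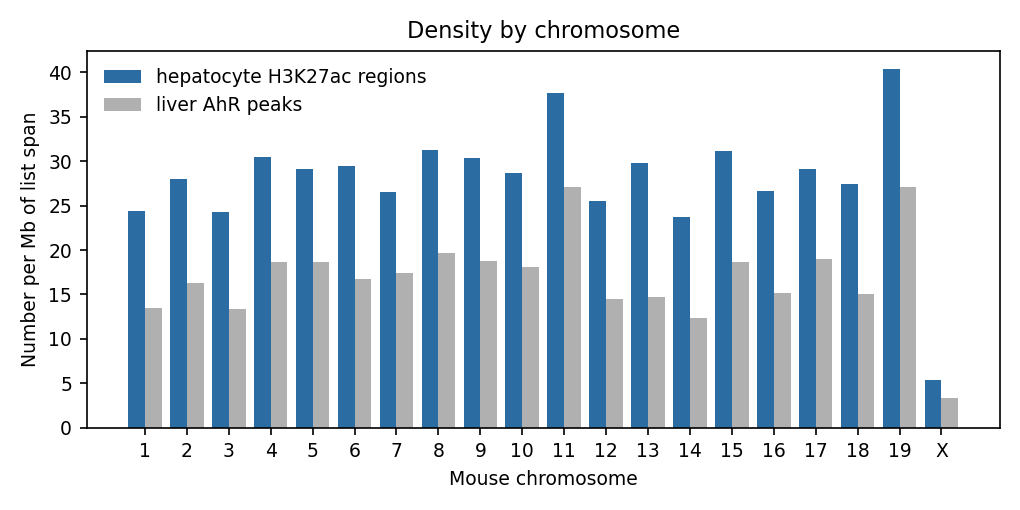
Number per Mb between the first and last entry (y axis) on mouse chromosomes 1 to 19 and X (x axis) for hepatocyte H3K27ac regions (blue bars) and liver AhR peaks (grey bars). Chromosomes 19 and 11 carry the tallest blue bars, 40.4 and 37.7 per Mb, and X the lowest at 5.4.

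The classes were even across autosomes where the density was not. Merged regions made up 76% to 78.3% of each autosome and 74.2% of X, and the median width lay between 272 and 279 bp on autosomes and at 282 bp on X. Grouping differed more. Regions in clusters of 10 or more, defined below, made up 20.1% of chromosome 1 and 35.9% of chromosome 8, but 2.95% of X. On X 35.1% of regions had no neighbour within 12.5 kb, against 16.1% in the whole list.

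At the scale of 1 Mb, 271 of 2570 windows (10.5%) held no region centre. On X this was 62 of 164 windows (37.8%), and on autosomes 8.69%. The median window held 19 regions, and 469 windows (18.2% of all) held 50% of the regions. The fullest window was on chromosome 4, 150000001 to 151000000, with 201 regions and 118 liver AhR peaks. Next came chromosome 15, 77000001 to 78000000, with 158 regions, and chromosome 2, 167000001 to 168000000, with 154.

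Long stretches without a region lay mostly on X. The 3 longest were on X at 119459570 to 129413350 (9.95 Mb), 60462267 to 70171353 (9.71 Mb) and 23841238 to 33416407 (9.58 Mb), leaving chromosome Y aside. These held 1, 3 and 0 liver AhR peaks. The longest on an autosome, 7.87 Mb, was on chromosome 14 at 106012354 to 113883652 and held 1 AhR peak. These stretches were chosen for holding no region, so they can hold no AhR peak that overlaps a region. Their low numbers of AhR peaks follow in part from that choice. Over 2406 autosome windows the numbers of regions and of AhR peaks were correlated, with a Spearman rho of 0.92 and a Pearson r of 0.86. The windows share base composition and mappability between the lists, and places where a region and an AhR peak overlap count in both. The correlation is a description.

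Neighbouring regions followed at very different distances. The median distance between neighbouring centres was 4878 bp, with the middle 50% between 886 and 21770 bp. Centres lay under 1000 bp apart in 27% of cases, 10000 to 100000 bp apart in 31.4% and farther still in 6.97%. The most frequent distance in bins of 50 bp was 400 to 450 bp, with 2044 pairs. Regions never overlapped each other.

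The merge class of close neighbours was arranged differently from that of distant ones. Where the gap to the next region was under 500 bp, the next region was merged in 74.1% of cases after a merged region and in 79% after a single one. The share was lower after a merged region on 17 of 20 chromosomes. Where the gap was 500 to 2000 bp the shares were 77.4% after a merged and 75.6% after a single region, higher after a merged region on 14 of 20 chromosomes. Beyond 10000 bp they were 78.7% and 77.1%. Regions with a neighbour within 200 bp were merged in 73.7% of cases, against 78.9% of those with none within 10000 bp.

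Regions were then grouped into clusters wherever the gap between neighbours was at most 12.5 kb, the distance in common use for joining enhancers into super-enhancers. This gave 23684 clusters, of which 11201 were a region alone. Clusters of 10 or more regions numbered 1135. They were 4.79% of the clusters and held 18880 regions, 27.1% of the list. This share depends on the gap allowed: it was 9.26% with gaps of up to 5000 bp and 41.7% with gaps of up to 20000 bp, and with merged regions alone 19.1% of those lay in such clusters. Their median span was 38.6 kb, and regions covered a median of 11.7% of it. Clusters of 20 or more numbered 258, and clusters of 40 or more numbered 28.

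The cluster with the most regions on a chromosome lay on chromosome 14 at 25451103 to 25552103. It held 70 regions in 101 kb, of which 57 were merged, and 28 (40%) overlapped a liver AhR peak. That share was 25.1% in the whole list and 35.1% in all clusters of 40 or more regions. The longest unbroken run of merged regions in the chromosome 14 cluster was 21. The cluster on chromosome 11 at 117203481 to 117366845 held 67 regions in 163 kb, 45 of them merged and 25 with an AhR peak. Chromosome 15 carried a cluster of 65 at 77760972 to 77858162 and one of 62 at 58975215 to 59090609. These differed in AhR overlap, with 12 regions in the first and 27 in the second. A cluster of 62 on chromosome 4 at 45443702 to 45527542 had 27 as well.

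The cluster on chromosome 19 at 5786449 to 5851712 was the most compact of those with 60 or more regions on a chromosome. It held 61 regions in 65.3 kb, which covered 35.6% of its span with a median gap of 168 bp. Of the 61, 38 overlapped an AhR peak, the highest number of any cluster, and 8 in a row did so in its longest run. It also held the fourth widest region of the list. By contrast, the cluster on chromosome 1 at 88215540 to 88302910 held 60 regions in 87.4 kb, and 5 of them overlapped an AhR peak. Merged regions were in the minority there, 25 against 35 single ones, with up to 7 single regions in a row. Its regions were wide all the same, with a median of 320 bp and 17 over 500 bp. Single regions there had a median width of 304 bp, against 250 bp for single regions of the whole list.

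**Figure D3:**
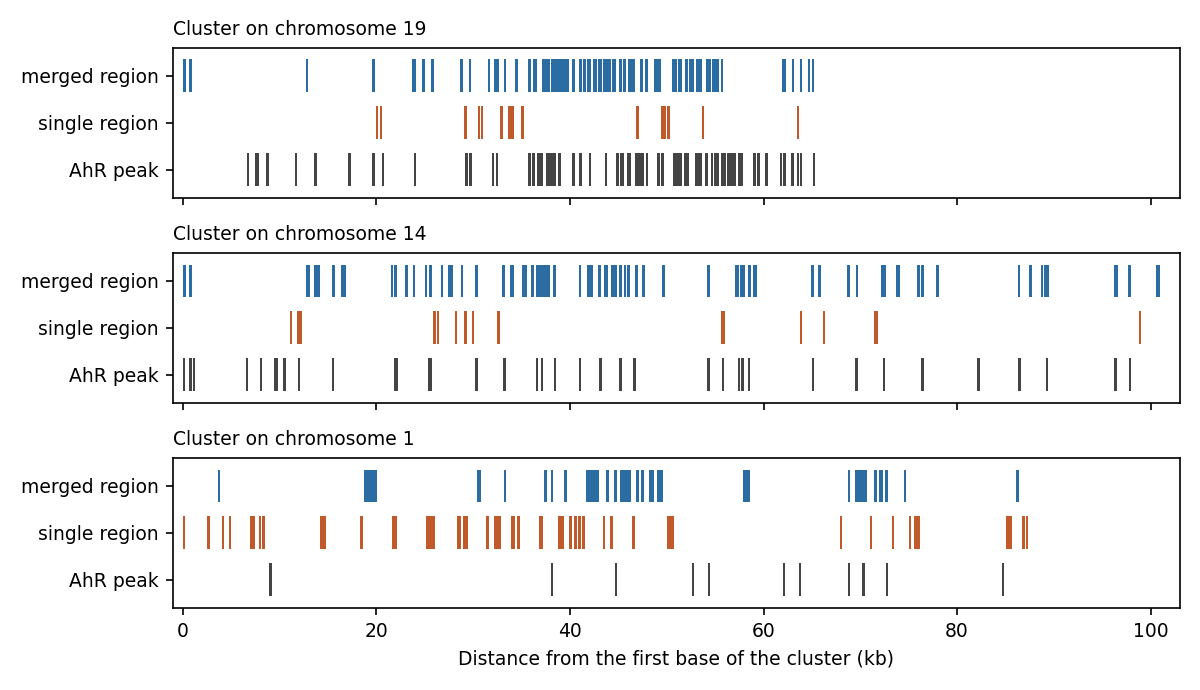
Positions of merged regions, single regions and liver AhR peaks (rows) in the clusters of 61, 70 and 60 regions on chromosomes 19, 14 and 1, as distance from the first base of each cluster (x axis, kb). The chromosome 19 cluster packs 48 merged regions and 49 AhR peaks into 65.3 kb, while the chromosome 1 cluster has more single (35) than merged (25) regions and 11 AhR peaks.

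The remaining clusters among the 10 largest on a chromosome held 60 regions each. They lay on chromosome 11 at 16735284 to 16851326 (42 merged, 22 with an AhR peak), chromosome 5 at 66027816 to 66171843 (47 merged, 29 with an AhR peak) and chromosome 2 at 167752810 to 167895352 (46 merged, 30 with an AhR peak). Apart from the chromosome 1 cluster, all clusters named so far were merged in 62.9% or more of their regions.

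The cluster with the most regions of all was not on a chromosome. The unplaced contig JH584304 carried 98 regions in 73 kb, 45.3% of that span, of which 81 were merged and none overlapped a liver AhR peak. Without an input library, background signal on this contig and on chromosome Y could not be checked. Without chromosome Y and the contigs, 1131 clusters of 10 or more remained. The densest clusters of at least 10 regions were led by 13 regions in 7.19 kb on chromosome Y at 90737440 to 90744631 (1.81 per kb), with no AhR peak. Next were 13 regions in 8.5 kb on chromosome 4 at 40152847 to 40161342 and 12 in 8.37 kb on chromosome 4 at 126108088 to 126116455, each with 4 regions that overlapped an AhR peak. On chromosome 14, 24 regions at 65971243 to 65988296 covered 68.5% of 17.1 kb, with a median width of 428 bp and 6 overlapping an AhR peak. The fifth, 11 regions on chromosome 5 at 96799976 to 96807941, had none.

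Large clusters also differed in how many of their regions were merged, from 30% to all of them, with a median of 76.9% and the middle 50% of clusters between 69.2% and 84.4%. In 16 of the 1135 clusters single regions outnumbered merged ones, and in 48 every region was merged. The clusters named next were chosen after their values were seen. On chromosome 9, a cluster of 38 at 77742827 to 77807122 held 20 single regions, 9 of them in a row. On chromosome 2, a cluster of 26 at 75669676 to 75701740 was 50% merged, and 63.7 kb away a cluster of 15 at 75765468 to 75803424 was merged throughout. On chromosome 1, 16 regions at 87879767 to 87936832 were all merged, 279 kb from the cluster in which single regions were in the majority.

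The overlap with AhR was read from the AhR list of mouse liver, 41678 peaks from 3 control and 3 B2-deficient libraries of whole liver, which is another preparation than the hepatocytes. The hepatocyte list covers Ad_Cre as well as Ad_Cont libraries of AhR-floxed cells, while the titles of the liver libraries name neither a floxed gene nor Ad. AhR libraries were crosslinked with disuccinimidyl glutarate and formaldehyde, and H3K27ac libraries with formaldehyde alone, per the labels. At least 1 bp was shared with an AhR peak by 17450 regions, 25.1% of the list with a 95% Wilson interval of 24.7 to 25.4. Chromosome X had a share of 18.4%, none of the 24 regions on Y had an AhR peak, and among autosomes the share ran between 22.3% (chromosome 7) and 28.6% (chromosome 19). Few regions, 196, held 2 or more AhR peaks.

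Merged regions overlapped an AhR peak more often than single ones, 28.2% (95% Wilson interval 27.8 to 28.6) against 14.5% (13.9 to 15), and did so on 20 of 20 chromosomes by 10.2 to 19.8 percentage points. The share was 28% at merge number 2, 32.8% at 3 and 46.2% at 4 (95% Wilson interval 39.6 to 52.9). Merged regions were also wider, and the part of width in the difference was not tested. The share was higher in merged than in single regions in each of the width bins. Among regions of 226 to 250 bp, 26.3% of merged and 13.7% of single ones overlapped an AhR peak. Among those of 351 to 500 bp the shares were 30.9% and 17.5%. The share also rose with width within each class. From the narrowest bin to regions above 500 bp it went from 23.2% to 34.9% in merged regions and from 13.5% to 19.4% in single regions.

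The gap was present for either class of AhR peak. Merged AhR peaks overlapped 14.9% of merged and 6.4% of single regions, and single AhR peaks overlapped 13.5% of merged and 8.18% of single regions. The margin was wider for merged AhR peaks.

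Clustered regions overlapped AhR peaks more often than isolated ones. The share was 17.3% (95% Wilson interval 16.6 to 18) in regions alone, 23.8% in clusters of 3 to 5, 32% in clusters of 10 to 19, 31.1% in clusters of 20 to 39 and 35.1% in clusters of 40 or more. In clusters of 10 or more together it was 32% (95% Wilson interval 31.3 to 32.6), above regions alone on 20 of 20 chromosomes, by 8.98 points at the least. The largest difference, 44.1 points, was on X, where only 26 regions lay in 2 such clusters. Without the contig JH584304, the share in clusters of 40 or more was 37.6%.

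The share rose further with cluster size in merged than in single regions. Merged regions went from 18.5% (95% Wilson interval 17.7 to 19.3) in regions alone to 36.2% in clusters of 10 to 19, 36.8% in clusters of 20 to 39 and 41.8% (38.9 to 44.8) in clusters of 40 or more. Single regions went from 12.7% (11.5 to 14.2) to 17.6% (16.2 to 19.1) in clusters of 10 to 19, then to 14.8% (13.1 to 16.7) in clusters of 20 to 39 and 18.7% (15.3 to 22.6) in clusters of 40 or more, with no steady rise. The merged share itself moved the other way, from 79.1% of regions alone to 77.2% in clusters of 10 to 19, 74.1% in clusters of 20 to 39 and 71.1% in clusters of 40 or more.

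**Figure D4:**
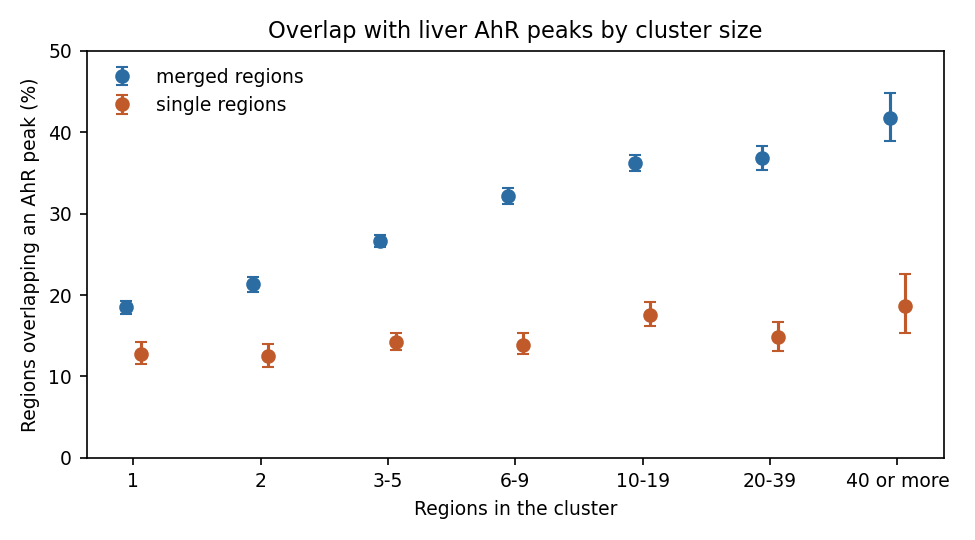
Share of hepatocyte H3K27ac regions that overlapped a liver AhR peak (y axis, %) by the number of regions in the cluster (x axis), for merged (blue) and single (orange) regions; points are shares and bars are 95% Wilson intervals. Merged regions climb from 18.5% to 41.8%, and single regions lie between 12.5% and 18.7%.

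Large clusters varied around this mean. The median cluster of 10 or more had an AhR peak in 30.3% of its regions, and in 200 of the 1135 at least 50% of the regions had one, up to 91.7%. In 55 none had one, and those named here were picked with their overlap known. The largest of these on a chromosome was a cluster of 33 regions on chromosome 17 at 70707030 to 70756827, 27 of them merged, with no AhR peak in its 49.8 kb. The next, 21 regions on chromosome 9 at 2999966 to 3032484, held the first region of that chromosome and had a median width of 206 bp. Background signal there could not be checked either. Of all AhR peaks, 8302 (19.9%) lay within the spans of the large clusters, which add up to 48.8 Mb, and 71.5% of these overlapped a region. The spans were drawn around dense regions, which raises the overlap within them by construction. Over all AhR peaks, 46.9% had a region centre within 1000 bp, and 5.4% had one without overlapping a region.

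Where region and AhR peak overlapped, their centres were close. Over 17648 overlapping pairs the median distance between centres was 37 bp, and in 61.1% it was at most 50 bp. The distance was shorter in merged than in single regions, with a median of 36 against 49 bp, although merged regions in these pairs were wider (median 286 against 255 bp). Within these pairs AhR peaks thus lay mostly near the middle of the region. The pairs were taken for sharing at least 1 bp, which leaves out AhR peaks just beside a region and bounds the distance. Over all AhR peaks, 34.8% lay within 100 bp of a region centre.

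Away from the overlap, the distance from an AhR peak to the nearest region centre did not fall off smoothly. It fell from 145 AhR peaks per bp of distance under 100 bp to 1.64 per bp at 2500 to 2750 bp, and then stepped up to 2.7 per bp at 3000 to 3250 bp. From 3000 to 3500 bp there were 1374 AhR peaks, against 841 from 2500 to 3000 bp, a ratio of 1.63 (95% interval from the counts 1.5 to 1.78). The plan set no distance for a step, so this interval and the values below do not allow for the choice of 3000 bp. The ratio was above 1 on 20 of 20 chromosomes, from 1.14 on chromosome 15 to 6 on X, with a median of 1.62. Chromosome X holds only 554 AhR peaks at all distances, so its ratio rests on few peaks. The ratio over the list lay between 1.6 and 1.67 when any chromosome was left out. Merged AhR peaks gave a ratio of 1.95 and single ones 1.43, with intervals of 1.71 to 2.22 and 1.28 to 1.6. These intervals cover counting error over peaks only, and the difference was not tested. The next region at lower and at higher coordinates gave ratios of 1.35 and 1.31, so the step was on either side of the AhR peaks.

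Seen from the regions, there was no such step. The distance from a region to the nearest AhR peak gave 1409 regions from 2500 to 3000 bp and 1412 from 3000 to 3500 bp, a ratio of 1 (0.931 to 1.08). Distances between neighbouring regions gave 0.856 (0.801 to 0.914). Gaps between neighbouring regions were then compared by length. An AhR peak without an overlapping region was centred in 10.4% of gaps of 5000 to 5500 bp, in 15.2% of those of 5500 to 6000 bp and in 17.1% of those of 6000 to 6500 bp. Among gaps of 3000 to 5500 bp the share lay between 8.5% and 11.3%. It was 2.55% at 500 to 1000 bp, 7.59% at 2000 to 2500 bp and 26.8% at 9500 to 10000 bp. Longer gaps have more room for a peak, and the shares were not corrected for length.

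**Figure D5:**
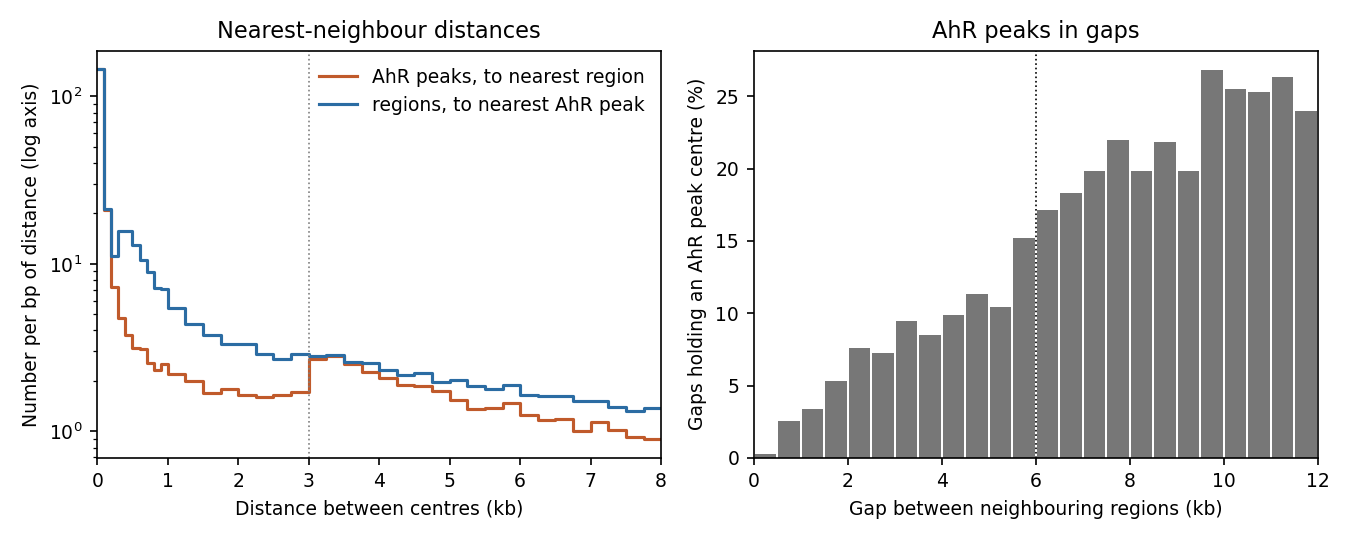
Left, number of AhR peaks (orange) or H3K27ac regions (blue) per bp of distance (y axis, log scale) by the distance to the nearest entry of the other list (x axis, kb); the orange line steps up at the dotted line at 3 kb, from 1.72 to 2.7 per bp, and the blue line does not. Right, share of gaps between neighbouring regions that hold the centre of an AhR peak with no overlapping region (y axis, %) by gap length (x axis, kb), with a dotted line at 6 kb.

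The AhR peaks just beyond the step differed in class from those just inside it. Of AhR peaks 3000 to 5000 bp from a region centre, 44.8% were merged (95% Wilson interval 43.4 to 46.3), against 37.4% (35.8 to 39) of those at 1000 to 3000 bp and 40.4% at 5000 to 20000 bp. Those within 100 bp were merged in 51.8%. In all, 18573 AhR peaks (44.6%) had no region centre within 3000 bp, and 831 of these had region centres within 6000 bp on both sides. Mouse gene starts were not used here, and the labels do not say whether regions near gene starts were kept in the list. In the HepG2 H3K27ac list, 2216 region centres lay 3000 to 3500 bp from the nearest end of a protein-coding human gene and 1328 lay 2500 to 3000 bp from one, a ratio of 1.67 (95% interval from the counts 1.56 to 1.79). The HepG2 list also held regions nearer to gene ends, with 1993 centres within 500 bp of one and 1288 at 2000 to 2500 bp. Gene ends came from a RefSeq table of GRCh38.p14 that has no strand, so starts and ends of genes were not told apart. Whether the hepatocyte list holds fewer regions within 3000 bp of gene starts was not tested. The HepG2 ratio comes from another species and list, and its relation to the step in the mouse lists was not tested. The 25.1% of regions with an AhR peak and the 44.6% of AhR peaks without a near region hold for the list as deposited. Neither was set against acetylation at mouse promoters.

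Regions without an AhR peak were often far from one. Of the 52165 regions without an overlap, 15.5% had an AhR centre within 1000 bp and 47.5% had none within 10000 bp. The latter, 24764 regions, are more than all the regions that overlapped an AhR peak.

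The H3K27ac list of HepG2 set beside it belongs to 10 libraries titled Day12, 5 of Cont and 5 of B2_minus, none of them titled AhRinh or DMSO. The hepatocyte list held fewer regions, of like width and merged share. HepG2 had 106666 regions that covered 33.1 Mb, against 69615 and 21 Mb. The median width was 284 bp in HepG2 and 276 bp in hepatocytes, and merged regions made up 78.2% and 77.3%. Regions in clusters of 10 or more made up 28% and 27.1%. Neighbouring centres lay a median of 5419 bp apart in HepG2 and 4878 bp in hepatocytes. None of these differences could be tested, because each list is a joint product of its libraries.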

How the data were processed

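Peak lists were used as the authors deposited them. Bowtie2 and HOMER are named without versions, and the builds mm10 and hg38 are named, per the submitters' processing notes. No label gives caller settings, filters or the peak sets that were merged. Positions were taken as 1-based with both ends included. Centres are midpoints. Overlap means at least 1 bp shared, and clusters join regions over gaps of up to 12.5 kb. The density by chromosome uses the span from the first to the last entry, since chromosome lengths were not used here. The planned test per region needs counts and was left out, as were the parts on mouse genes and sequence, which need mouse references. The distance of HepG2 regions to gene ends was added after seeing the data. Regions were named by a fixed rule (the 10 clusters with the most regions, the 5 densest, the 5 widest regions and the 3 longest gaps), and any other named region was picked with its values in view. The list and its settings were chosen with earlier results of these data known. The routines were tested on simulated data. Computation used Matplotlib 3.10.9, statsmodels 0.14.6, SciPy 1.17.1, pandas 2.3.3 and NumPy 2.4.6 under Python 3.11.15.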

Additional observations from a re-analysis of the deposited data

How the results depend on the processing

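Depth is unknown, so no limit set by reads can be given. Autosomes alone left the merged share and the median width within their counting intervals, and so did a limit of 1000 bp on width for the difference between classes. The edge-to-edge gap had a median of 4582 bp in place of 4878 bp between centres, which by definition is shorter. Clusters of 10 or more numbered 462 with gaps of up to 5000 bp and 698 with merged regions only, against 1135; each setting joins fewer regions by construction. With gaps of up to 20000 bp they numbered 1564. The share of regions with an AhR peak, 25.1%, was 23.7% with at least 50% of the shorter entry shared, 30% with centres within 500 bp and 12.9% with merged AhR peaks only, and the first and last of these can only lower it. The ratio across 3000 bp, 1.63, was 1.33 from region edges and 1.95 with merged AhR peaks, and the cause was not tested; it was 1.52 with merged regions only. The lead of clusters of 10 or more over regions alone, 14.7 points, lay between 14.1 and 14.9 in 3 alternatives. The alternatives on the ratio and those without chromosome Y and contigs were chosen after seeing the data. Alternatives on genes and sequence were not run. No paired analysis was possible because the list holds no value per library.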

Other observations

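Outside chromosomes 1 to 19 and X the list held 185 regions. Chromosome Y had 24, of which none overlapped an AhR peak and 13 lay in the dense cluster at 90737440 to 90744631. The contigs had 161 regions on 12 sequences, 101 of them on JH584304, and 1 of the 161 overlapped an AhR peak. On the contigs other than JH584304, 32 of 60 regions were single and the median width was 212 bp, against 22.7% single and 276 bp in the whole list. These sequences were set apart after their values were seen.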
